A study of Homo sapiens with 4 samples.

Results

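The Sprouty and Spred genes encode inhibitors of signalling from receptor tyrosine kinases to RAS and ERK. The set described here was SPRY1, SPRY2, SPRY4, SPRED1, SPRED2 and SPRED3, chosen by gene symbol. All 6 were found among the 13957 genes of the deposited table. SPRY3, the remaining Sprouty gene of the human genome, was not among its rows. The samples were MDA-MB-231 Fluc cells, a luciferase-carrying derivative of a triple-negative breast cancer cell line. RNA was sequenced from 2 samples treated with 50 μM cordycepin, an adenosine analogue, and from 2 samples treated with the DMSO vehicle, each for 2 h. The table gives 1 mean expression per gene for the whole comparison, as log2 CPM (read counts scaled to library size), and no value per sample. The fold changes and p-values beside it are the authors' own comparison and were not used. Nothing is therefore said here about how cordycepin changed these genes, and the levels below are means over treated and vehicle cells together, without an SD. In bulk RNA, fewer cells with a transcript and less of it in each cell cannot be told apart.

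Growth factors activate receptor tyrosine kinases, which load RAS with GTP through SOS and start the kinase cascade that ends in ERK. ERK activity induces several genes whose products damp the same cascade, and the Sprouty genes are among the best known of these. Sprouty proteins share a cysteine-rich domain at the carboxyl end and act at the level of the receptor adaptors and of the cascade below RAS. Spred proteins carry the same type of domain together with an EVH1 domain at the amino end, through which SPRED1 brings the RAS GTPase-activating protein neurofibromin to the membrane. Germline loss of SPRED1 causes Legius syndrome, a disorder related to neurofibromatosis.

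The labelled cell line was first compared with its marker genes. Levels between genes are given per length, as log2 CPM per kilobase, which is the authors' mean log2 CPM less the log2 of the gene length in kilobases from the same table. The mesenchymal gene VIM stood at 8.08 log2 CPM per kilobase, above 98.9% of all genes, and the surface glycoprotein gene CD44 at 7.25, above 97.9%. The hormone receptor genes ESR1 and PGR were not among the rows of the table. The epithelial gene CDH1 was at 1.07 log2 CPM per kilobase, above 26.9% of all genes. EPCAM, also epithelial, was at 2.40, above 49.3% of all genes and so near the middle of the table. ERBB2 was at 3.13, above 62.5% of all genes, so its transcript was not absent from these libraries.

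Of the 6 inhibitor genes, SPRY2, SPRY4 and SPRED1 lay above the middle of the table. SPRED2 was just below the middle, and SPRY1 and SPRED3 were low. The median over the 6 genes was 2.52 log2 CPM per kilobase, next to a median of 2.43 over all 13957 genes. As a set they therefore sat at an ordinary level for a gene listed in this table, with a wide range inside the set.

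SPRY2, which binds the ubiquitin ligase CBL and the adaptor GRB2, had the highest level of the family per kilobase of the gene length in the table, though not per kilobase of coding sequence, where SPRY4 and SPRED1 were higher. Its mean was 4.92 log2 CPM over a length of 3213 bases, which is 3.24 log2 CPM per kilobase. On the linear scale this corresponds to 9.44 CPM per kilobase. Per kilobase, 64.5% of all genes were lower than SPRY2.

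SPRY4, which restrains RAS activation downstream of FGF and VEGF receptors, followed with 2.99 log2 CPM per kilobase. Its mean before division by length was 5.70 log2 CPM. Per kilobase, 60.3% of all genes were lower. SPRED1, the Spred gene with the best described part in RAS inactivation, had 2.99 log2 CPM per kilobase as well, from the largest mean in the family, 5.94 log2 CPM, and the longest gene length, 7750 bases. The difference between SPRY4 and SPRED1 was 0.0024 on the log2 scale, and SPRY2 was 0.25 above both. No spread between samples is known for any of them, so the order of these 3 genes cannot be settled from the table.

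SPRED2, a close relative of SPRED1, had 2.05 log2 CPM per kilobase from a mean of 4.51 log2 CPM. It was 0.94 below SPRED1 on the log2 scale, a ratio of 1.92 per kilobase. Of all genes, 43.1% were lower per kilobase.

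The lower members were SPRY1 and SPRED3. SPRY1, studied mostly in kidney development and vascular cells, had a mean of 2.29 log2 CPM and 0.30 log2 CPM per kilobase, above 16.8% of all genes. It was 2.93 below SPRY2 on the log2 scale per kilobase, a ratio of 7.64. SPRED3, the Spred member that lacks a functional KIT-binding domain, had a mean of 2.11 log2 CPM and -0.45 log2 CPM per kilobase. Only 8.93% of all genes were lower per kilobase. Between the ends of the family, SPRY2 and SPRED3, the ratio per kilobase was 12.8.

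Added up on the linear scale, the 6 genes came to 31.4 CPM per kilobase. The 3 Sprouty genes held 59.3% of this sum and the 3 Spred genes 40.7%, but without division by length the split turned to 49.7% and 50.3%. With the gene length of the table, SPRY2 alone made up 30.0%, SPRY4 25.3% and SPRED1 25.2%. Per coding kilobase, SPRY4 held the largest share at 35.6% and SPRY2 held 19.7%, and without division by length SPRED1 held 34.9% and SPRY2 17.2%. SPRED2 contributed 13.2% with the gene length of the table, whereas SPRY1 and SPRED3 contributed 3.93% and 2.34%. These shares describe transcripts, since protein was not measured in these samples.

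**Figure D1:**
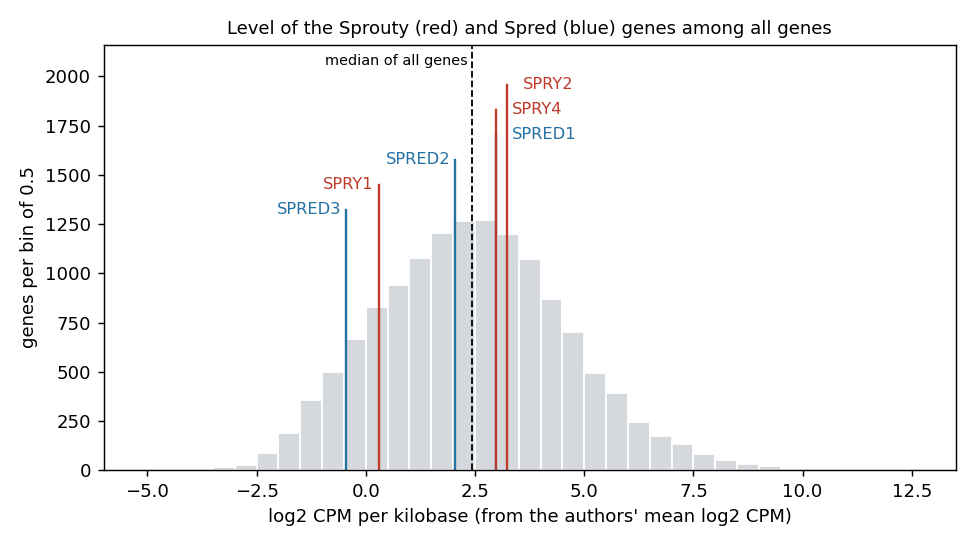
Number of genes in bins of 0.5 log2 CPM per kilobase for all 13957 genes of the table (grey bars), with a vertical line at the level of each Sprouty gene (red) and Spred gene (blue); the height of a line only separates the labels. SPRY2, SPRY4 and SPRED1 lie to the right of the dashed median of all genes at 2.43, SPRED2 just to its left, and SPRY1 and SPRED3 in the lower part of the distribution.

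The Sprouty and Spred genes were next placed beside the pathway on which they act, using 4 lists written from general knowledge. Of 13 receptor tyrosine kinase genes, 10 were in the table, and FGFR2, PDGFRA and KIT were not among its rows. The median of these 10 was 1.33 log2 CPM per kilobase, lower than the 2.52 of the inhibitor genes. The range was wide, from MET, the receptor for HGF, at 5.25 to the VEGF receptor gene KDR at -1.10. With the gene length of the table, 3 receptor genes were above SPRY2 and 2 were below SPRED3. EGFR was among those above, at 4.998 log2 CPM per kilobase.

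The 13 listed genes of the RAS to ERK cascade were all in the table, with a median of 3.09 log2 CPM per kilobase. Of these, 6 were above SPRY2 with the gene length of the table, 6 lay within the range of the inhibitor genes and 1 was below it. The highest was HRAS at 5.66. The lowest was KSR1, a scaffold of the kinase cascade, at -2.08.

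Partners and regulators of Sprouty and Spred proteins, all 13 of them in the table, had a median of 2.86 log2 CPM per kilobase. CAV1, encoding the membrane protein caveolin-1, was the highest at 8.30, above 99.1% of all genes. NF1, which encodes neurofibromin, the partner of the Spred proteins, was the lowest at 0.09. NF1 has a gene length of 27130 bases in the table, and its mean before division by length, 4.85 log2 CPM, was close to that of SPRY2. CBL and GRB2, which bind SPRY2, were at 2.84 and 5.07 log2 CPM per kilobase. TESK1 and DYRK1A, kinases reported to bind Sprouty proteins, were at 2.86 and 0.20. DYRK1A also has a long gene length, 26763 bases. Before division by length its mean, 4.94 log2 CPM, was above the 4.60 of TESK1.

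Another 9 genes that damp the pathway by other means were all in the table, with a median of 3.66 log2 CPM per kilobase. With the gene length of the table, 7 of the 9 were above SPRY2. The nearest of these was DUSP7, at 3.26 against 3.24 for SPRY2, which is too close to settle their order. PEBP1, which encodes a protein that inhibits the kinase cascade, was the highest at 7.55, and RASA2, a RAS GTPase-activating protein gene, the lowest at 1.46. The ERK phosphatase gene DUSP6 was at 3.52, and the EGFR inhibitor gene ERRFI1 at 4.79. Over all genes of the table, 4957 were above SPRY2 and 1246 below SPRED3.

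**Figure D2:**
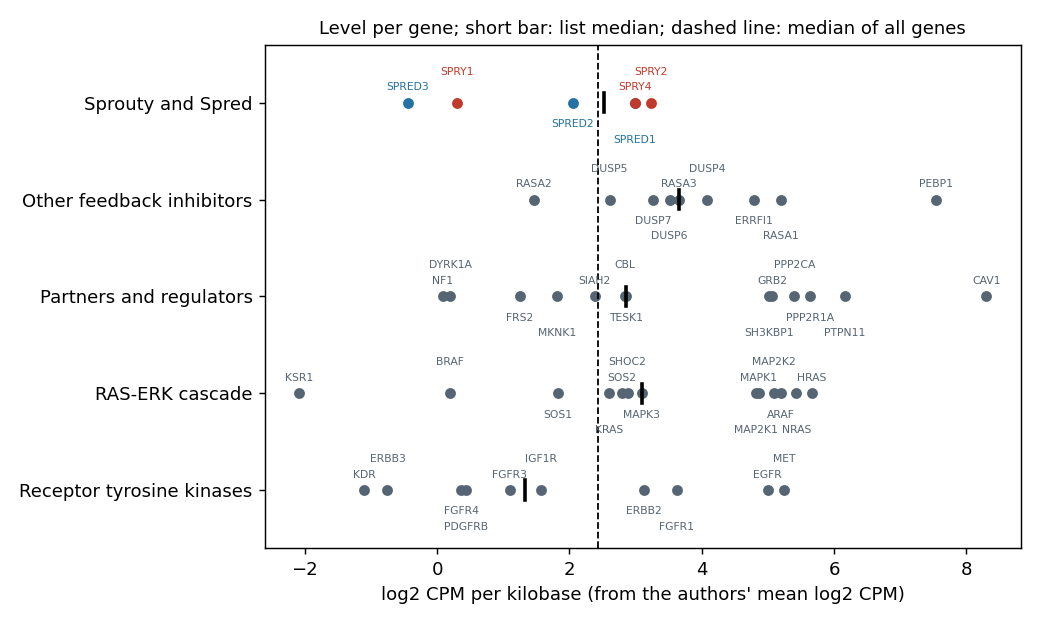
Level of each gene as log2 CPM per kilobase, from the authors' mean log2 CPM, for the Sprouty (red) and Spred (blue) genes and for the 4 pathway lists (grey), with the list median as a short bar and the median of all genes as a dashed line. The inhibitor genes extend from -0.45 to 3.24 with the gene length of the table, and 6 of 13 cascade genes lie above the highest of them. So do 7 of the 9 genes that damp the pathway by other means, shown in the row labelled other feedback inhibitors.

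The members differ in gene structure. Coordinates are on GRCh38 as given in the table, and start and end of all 6 were the same in GENCODE release 44. In the canonical GENCODE transcripts, the coding sequence lay within 1 exon in each of the 3 Sprouty genes, and in 7, 6 and 5 exons in SPRED1, SPRED2 and SPRED3. SPRY1 (ENSG00000164056) is on the plus strand of chromosome 4, from 123396795 to 123403760. SPRY2 (ENSG00000136158) is on the minus strand of chromosome 13, from 80335976 to 80341126, and spans only 5151 bases. SPRY4 (ENSG00000187678) is on the minus strand of chromosome 5, from 142310427 to 142326455.

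The Spred genes are spread over more DNA, with the exception of SPRED3. SPRED1 (ENSG00000166068) is on the plus strand of chromosome 15, from 38252836 to 38357249, a span of 104414 bases. SPRED2 (ENSG00000198369) is on the minus strand of chromosome 2, from 65310851 to 65432637, a span of 121787 bases. SPRED3 (ENSG00000188766) is on the plus strand of chromosome 19, from 38388421 to 38399587, a span of 11167 bases. Exons of the canonical transcript made up 6.96% of the span of SPRED1 and 3.71% of that of SPRED2, compared with 30.6% to 44.4% in the other 4 genes.

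Much of each transcript is not coding. The coding sequence took up 18.3% of the canonical transcript in both SPRY4 and SPRED1, and 41.3% in SPRY2. The order of levels depended on which length was used. Per kilobase of coding sequence, SPRY4 came first at 5.86, followed by SPRED1 at 5.53 and SPRY2 at 5.004 on the log2 scale. Without division by length, SPRED1 came first. In each of these orders, and with the lengths of GENCODE release 44, SPRED2, SPRY1 and SPRED3 stayed below these 3 genes, in that order.

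**Figure D3:**
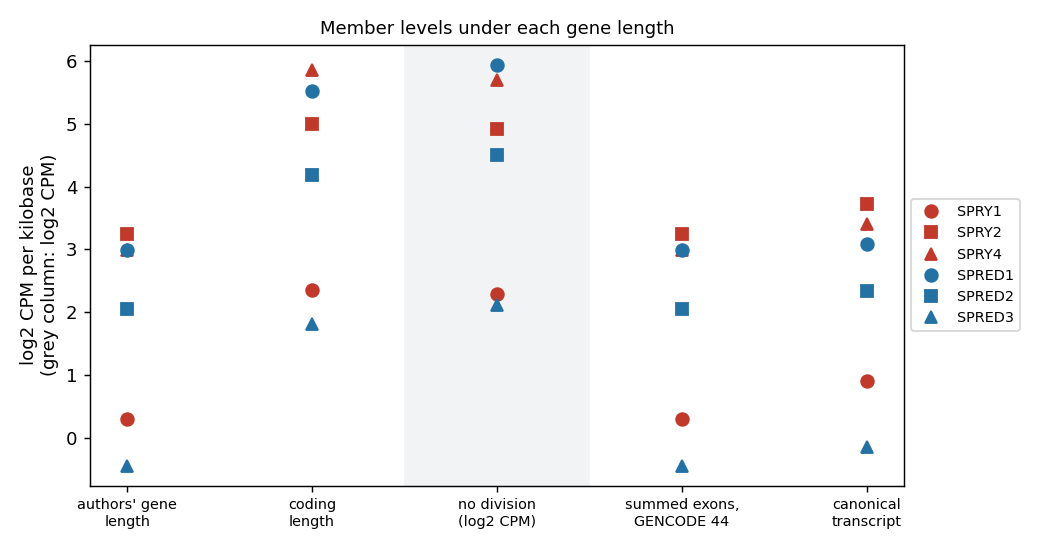
Level of each member under 5 choices of gene length, on the log2 scale, from the authors' mean log2 CPM; the grey column has no division by length. SPRY2, SPRY4 and SPRED1 change places among themselves between columns, while SPRED2, SPRY1 and SPRED3 keep the same order below them.

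No other gene of the table overlapped a member by its coordinates. In GENCODE, the antisense gene SPRY4-AS1 overlaps the start of SPRY4. A further 2 genes without a symbol overlap SPRY4, and 1 such gene overlaps SPRED2. None of these genes was among the rows of the table, and whether reads were counted by strand is not given in the sources used here. Nearest neighbours in the table were named after their values were seen. For SPRY2 this was NDFIP2 at a distance of 779900 bases, and for SPRY4 it was NDFIP1 at 155986 bases, both on the opposite strand from the Sprouty gene. The NDFIP genes encode related adaptors of NEDD4-type ubiquitin ligases. For SPRED1 the nearest was FAM98B at 96877 bases, and for SPRED3 it was FAM98C at 3547 bases, both on the same strand as the Spred gene. These are the nearest genes that the table lists, and it lists no gene within 100 kb of SPRY2 or SPRY4. The level per kilobase was 2.84 for NDFIP2 and 4.28 for NDFIP1, and 2.96 for FAM98B and 1.63 for FAM98C. SPRY1 and SPRED2 had unrelated nearest neighbours in the table, SPATA5 and ACTR2.

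RefSeq promoter windows, from 250 bases before to 50 bases after a start site on GRCh38.p14, were found for all 6 genes, 11 windows in total. The 250 bases before the start are shown for SPRY1, SPRY2 and SPRED1, the members with a RefSeq start site at exactly the gene start in the table, which include low and high members. Sequences are written from the distal end towards the start site on the strand of the gene, and capitals mark matches to the motifs listed below. They lie at chr4:123396545-123396794 (plus strand), chr13:80341127-80341376 (minus strand) and chr15:38252586-38252835 (plus strand).
SPRY1: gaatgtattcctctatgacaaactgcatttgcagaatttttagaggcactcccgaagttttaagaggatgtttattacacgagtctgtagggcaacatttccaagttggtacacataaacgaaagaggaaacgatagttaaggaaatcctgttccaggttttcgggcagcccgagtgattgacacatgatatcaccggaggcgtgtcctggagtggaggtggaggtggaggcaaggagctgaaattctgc
SPRY2: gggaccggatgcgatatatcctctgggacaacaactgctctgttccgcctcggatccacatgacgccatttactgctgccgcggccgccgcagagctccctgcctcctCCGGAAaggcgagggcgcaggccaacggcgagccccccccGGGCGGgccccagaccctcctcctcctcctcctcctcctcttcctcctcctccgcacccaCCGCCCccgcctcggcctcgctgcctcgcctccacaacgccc
SPRED1: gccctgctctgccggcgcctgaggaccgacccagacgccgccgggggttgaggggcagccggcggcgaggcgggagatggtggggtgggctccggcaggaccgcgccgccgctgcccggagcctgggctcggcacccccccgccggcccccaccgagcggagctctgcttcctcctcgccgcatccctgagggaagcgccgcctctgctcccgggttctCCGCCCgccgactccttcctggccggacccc

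The SPRY1 stretch was poor in G and C, at 45.6%, and held 8 CpG dinucleotides. The stretch of SPRY2 was 70.4% G and C with 23 CpG, and that of SPRED1 78.4% with 30 CpG. A second RefSeq start of SPRY1, located 1591 bases further into the gene, had a window with 69.3% G and C, so the AT-rich window is not the only start of this gene. Over the 11 windows of the family, the median G and C content was 63.0%, compared with 65.0% over 14304 windows of genes in the table.

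Windows were searched on both strands for 7 motifs. The GC box (GGGCGG) was found in 7 of 11 windows, and is present in 45.0% of all 35116 RefSeq windows. Each of the 6 genes had at least 1 window with it, but a gene can have several windows, so this count has no matching share. The median G and C content was 58.7% over all RefSeq windows, below the 63.0% of the members. Motif shares were not taken over the windows of genes in the table alone. In SPRY2, matches started 102 and 42 bases before the start site, and in SPRED1, 1 match started 31 bases before it. The core of ETS sites (CCGGAA) was found in 2 of 11 windows, 1 each of SPRY1 and SPRY2, and in 17.2% of all windows. In SPRY2 the match started 142 bases before the start. The SPRY1 match lay in the window of its second start, 1591 bases further into the gene, and not in the stretch shown above. The AP-1 motif (TGANTCA) was found in 1 window each of SPRED2 and SPRED3, and in 7.71% of all windows. Those windows belong to start sites 65859 and 1370 bases from the gene starts in the table. The CCAAT box (CCAAT) was found in 1 window each of SPRED2 and SPRED3 (34.6% of all windows), and the TATA box (TATAAA) in 1 window of SPRED2 (11.5% of all windows). In SPRED2 the CCAAT and TATA boxes lay in the same window as the AP-1 match, 65859 bases from the gene start. The CCAAT box of SPRED3 lay in the window of a start site 276 bases from its gene start. The cyclic AMP response element (TGACGTCA) and the E-box (CACGTG) were found in 0 of the 11 windows, compared with 1.85% and 7.26% of all windows. The GC box can overlap other GC-rich motifs, and whether any factor binds at these matches was not tested.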

How the data were processed

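RNA of MDA-MB-231 Fluc cells (2 cordycepin and 2 DMSO samples) was sequenced from stranded, ribosomal RNA-depleted libraries (75 bp, paired ends). Mapping to GRCh38.p13 and counting, by rsubread, were done by the authors. The submitters' processing notes on the deposited data also list TopHat, HTSeq, DESeq and Cufflinks, with no role, and hg38. The authors deposited 1 table with a mean log2 CPM per gene, a gene length, coordinates, and 4 columns of their own comparison of cordycepin with DMSO (log2 fold change, F statistic, p-value and adjusted p-value), which were not used. It holds 0 columns of values per sample. Depth per library is therefore unknown, and no error, test or comparison of the groups was made. The normalisation behind the log2 CPM and the filter on low counts are not given in the sources used here.

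The level per kilobase is the authors' mean log2 CPM less log2 of their gene length over 1000 bases. For 73.5% of genes this length equalled the summed exon length in GENCODE release 44, and for 88.3% it was within 10% of it. Of the gene IDs, 99.7% were in that release, and 81.9% had identical start and end coordinates there. Genes named are the 6 members, the highest and lowest of each list, list genes absent from the table, overlapping genes and marker genes. Other genes (EGFR, CBL, GRB2, TESK1, DYRK1A, DUSP6, DUSP7, ERRFI1, nearest neighbours and SPRY4-AS1) and the motifs were chosen after the values or windows were seen. The members and lists were chosen with earlier results of these data known. A planned comparison of protein sequences was not made, and 1 gene of the cascade list is not reported here. Functions were checked on simulated data. Python 3.11.15, numpy 2.4.6, pandas 2.3.3 and matplotlib 3.10.9 were used.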

Additional observations from a re-analysis of the deposited data

How the results depend on the processing

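Of the 15 pairs of members, 13 kept their order of level per kilobase when coding length was used, 12 without division by length, and 15 with the summed exon or the canonical transcript length of GENCODE release 44, which were chosen after seeing the data. The share of the summed level held by the Sprouty genes, also examined after seeing the data, was 58.4% to 64.2% with the other lengths and 49.7% without division by length, which turns the direction. The median of the 6 members, 4.72 log2 CPM, ranged from 4.51 to 4.92 when each was left out in turn. Against protein-coding genes only, the share of genes with a lower mean log2 CPM fell from 55.8% to 49.5% for SPRY2, from 69.2% to 64.7% for SPRY4, from 73.2% to 69.3% for SPRED1, from 48.8% to 41.9% for SPRED2, from 17.9% to 11.8% for SPRY1 and from 15.8% to 10.2% for SPRED3. SPRY1 and SPRED3 are in the lowest 25% of mean log2 CPM, so they have no value among the 10468 genes above it, where the shares were 41.0%, 59.0%, 64.3% and 31.7% for SPRY2, SPRY4, SPRED1 and SPRED2. These shares are before division by length, unlike those given per kilobase in the Results. Per kilobase, the shares of protein-coding genes that were lower were 63.3% for SPRY2, 58.8% for both SPRY4 and SPRED1, and 41.3% for SPRED2. For SPRY1 and SPRED3 they were 15.5% and 8.24%. Against all genes per kilobase, the shares were 64.5%, 60.3%, 60.2%, 43.1%, 16.8% and 8.93%, in the same order of genes. The receptor list stayed below the members and the other lists above them with the canonical transcript and coding lengths. No paired analysis was possible because the table holds no value per sample. For the same reason no sample could be left out.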
